A study of Mus musculus with 6 samples.

Results

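The genes that make and sense vasoactive mediators were examined as a set of 10 genes, chosen by name from the 13595 genes of the deposited table, and all 10 were present. The set covers nitric oxide synthesis (Nos3), the endothelin system (Edn1, Ednrb, Ece1), prostanoid synthesis (Ptgs1, Ptgs2, Ptgis), the angiotensin-converting enzyme Ace, and adrenomedullin with its receptor (Adm, Calcrl). RNA was sequenced from primary CD31-positive cells, a selection for an endothelial surface antigen, taken from livers of male and female C57BL6/J mice at 4 weeks of age and then cultured. Each library came from cells that had received 100 µM indoxyl sulfate, a tryptophan metabolite and ligand of the aryl hydrocarbon receptor (AHR), together with 6 hours of hypoxia and nutrient deprivation. There were 3 libraries labelled male and 3 labelled female (replicates 4, 5 and 6 of each), so the labelled sex is the contrast, and the effects of the ligand and of hypoxia were not analysed here. The labels do not say whether replicates are separate mice, isolations or wells, nor whether animals were pooled. The p-values therefore measure the spread between these libraries, which may be technical.

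Endothelial cells set vascular tone through a balance of dilators and constrictors. Endothelial nitric oxide synthase, encoded by Nos3, and prostacyclin, made by cyclooxygenases and then by prostacyclin synthase, relax the neighbouring contractile cells, whereas endothelin-1 contracts them through its A-type receptor and can release dilators through the endothelial B-type receptor. Angiotensin-converting enzyme makes the constrictor angiotensin II and degrades bradykinin, and adrenomedullin dilates through the receptor Calcrl paired with a RAMP protein. In the liver these signals act between sinusoidal endothelial cells and stellate cells, and the adrenomedullin and endothelin genes are textbook targets of hypoxia-inducible factors.

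The libraries held between 22303270 and 31189363 reads assigned to genes, where 3 reads corresponded to a normalized read count of 0.106 to 0.142. The labels were checked first, because each direction below rests on them. Xist was read at 234 to 324 in the female-labelled libraries and 0.124 to 0.458 in the male-labelled ones, but transcripts of 4 Y-linked genes were also read in all 3 female-labelled libraries, against their label. Ddx3y stood at 48.5 to 57.7 there and 47.2 to 76.3 in the male-labelled ones, and Uty at 22.2 to 27.7 and 23.7 to 32.0, with overlap. Eif2s3y (29.4 to 30.2 against 55.3 to 61.2) and Kdm5d (17.6 to 20.8 against 30.7 to 37.5) were lower there without overlap. The groups are therefore named by their labels, and a difference between them cannot be read as one of sex alone. The cell type was checked against marker lists, and the 2 groups differed there too. For scale, 34.6% of all tested genes were called lower and 34.6% higher, by the test given below. Of 15 tested endothelial markers, 12 were lower and 2 higher in the female-labelled libraries, with a summed level of 1289 to 1352 against 2420 to 2537. Of the 12, Robo4 and Vwf had passed the filter through the male-labelled libraries alone and could only be called lower. Of 10 markers of liver sinusoidal endothelium, 7 were below the filter in both groups, 3 were lower, and the sum was 18.2 to 21.2 against 508 to 549, of which Lyve1 alone made up 4.98 ± 0.566 and 498 ± 24.8 (SD, n = 3). Of 7 tested mesothelial markers, 6 were higher (sum 430 to 455 against 118 to 121), 4 of which had passed the filter through the female-labelled libraries alone. Of 15 tested stellate, mural and fibroblast markers, 9 were lower (1 of which, Lum, had passed through the male-labelled libraries alone) and 5 higher (sum 3578 to 4297 against 2905 to 3744). These sums hide opposite moves, with the contractile genes Acta2 (21.5-fold), Tagln (20.3-fold), Cnn1 (13.9-fold) and Myh11 (75.0-fold) higher and Pdgfrb (9.25-fold), Col3a1 (5.60-fold) and Col1a2 (2.80-fold) lower. Male replicate 4 stood well above replicates 5 and 6 for Acta2 (134 beside 56.4 and 45.9), Tagln (83.6 beside 40.2 and 32.5) and Cnn1 (8.87 beside 3.97 and 4.03). The folds of these genes depend on that library. Of 5 tested cholangiocyte markers 4 were lower and 1 higher (sum 510 to 613 against 1641 to 2489). Macrophage markers summed to 13.2 to 15.8 against 7.55 to 10.1, with Emr1 (now Adgre1) at 0 in each library and both tested members higher. Hepatocyte markers summed to 0.285 to 0.374 against 7.13 to 11.7, and the 1 tested, Ahsg, had passed through the male-labelled libraries alone and could only be called lower, and of 12 lymphocyte markers 0 were listed. In bulk RNA, fewer cells of a type and less RNA per cell cannot be told apart, and the part that these marker differences play in the results below was not tested.

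All 10 vasoactive genes differed between the groups. Relative to the male-labelled libraries, 8 were lower in the female-labelled libraries (Nos3, Ednrb, Ece1, Ptgs1, Ptgis, Ace, Adm and Calcrl) and 2 were higher (Ptgs2 and Edn1), by limma with a Benjamini-Hochberg adjusted p under 0.05 over 12568 genes, though 6 of the 8 (all but Ace and Nos3) had the opposite sign when values were taken relative to the endothelial gene Pecam1. That scaling raises every log2 change by the fall of Pecam1, and it turned the sign of 93.1% of all genes called lower, so the turn is not particular to these 6. This contrast called 69.3% of tested genes, 34.6% as lower and 34.6% as higher, so a call alone sets none of the 10 apart. The values of the 2 groups did not overlap for any of the 10, which was also so for 74.1% of tested genes. Of the 10, 7 were called with an absolute log2 change of 1 or more, against 20.6% of tested genes. The median log2 change of the 10 was -1.11, beside 0.01 over all tested genes, and the median absolute log2 change was 1.86 beside 0.46. Nos3 passed the filter on low values through the male-labelled libraries alone, and Edn1 through the female-labelled ones alone. Both thus had to differ in order to be tested, and both are counted in the 7 and in these medians. In the authors' deposited table, 7 of the 10 had a false discovery rate under 0.05 (25.8% of its genes did), and all 10 had the same sign as here. The 3 that did not pass in the authors' deposited table were Ece1, Ptgs1 and Ptgis, with false discovery rates of 0.144, 0.319 and 0.531.

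**Figure D1:**
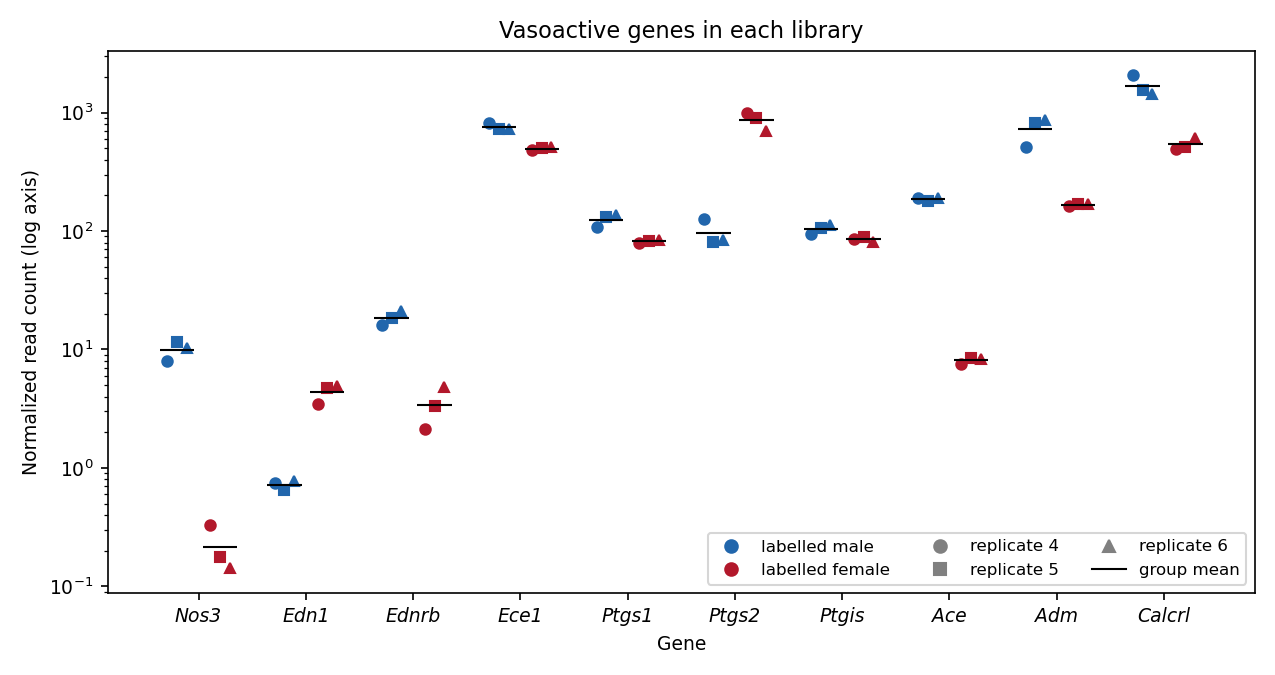
Normalized read count (log axis) of the 10 genes in each of the 6 libraries. Blue symbols are libraries labelled male and red symbols the female-labelled ones, the symbol shape gives the replicate number, and black lines are group means (n = 3). The groups do not overlap for any gene; Ptgs2 and Edn1 lie higher in the female-labelled libraries and the other 8 lower.

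Among the genes of nitric oxide, Nos3, the endothelial synthase, was a weakly expressed gene in these cultures. It was read at 8.05, 11.6 and 10.3 in male replicates 4, 5 and 6, and at 0.332, 0.177 and 0.142 in female replicates 4, 5 and 6. The second set rests on 8, 4 and 3 reads, against 194, 305 and 292 reads. The group means of 9.995 ± 1.81 and 0.217 ± 0.101 (SD, n = 3) differed 46.0-fold. On the log2(value + 1) scale, which compresses low values, the log2 change was -3.16 (SE 0.15, by limma, adjusted p 5.37e-07), and edgeR's quasi-likelihood test on recovered reads gave -5.48 (adjusted p 1.09e-06). The gene lies on chromosome 5 (GRCm38, 24364810 to 24384474, + strand), and 20.0% of its 50-mers also occur in other annotated transcripts. Its exons share 294 bases with Atg9b and 1040 bases with Gm15587 on the opposite strand. As no source used here says that reads were counted by strand, reads of Nos3 and of these genes cannot be told apart there. Atg9b was itself read at 6.12 ± 0.885 in the male-labelled libraries and 1.32 ± 0.462 in the female-labelled ones (SD, n = 3).

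Of the other 21 tested genes of the nitric oxide list, 11 were lower and 6 higher in the female-labelled libraries, with a median log2 change of -0.29. Over all tested genes, 34.6% were called lower and 34.6% higher. Of all 22 tested genes of that list, Nos3 among them, 2 had passed the filter through the male-labelled libraries alone. Nos2, the inducible synthase, was the more abundant of the 2 synthases in both groups. Its level per kilobase of exon was 90.8 ± 13.8 beside 2.42 ± 0.439 for Nos3 in the male-labelled libraries, and 10.4 ± 1.61 beside 0.0525 ± 0.0244 in the female-labelled ones (SD, n = 3). Nos2 was lower by a log2 change of -3.09 (SE 0.14, by limma, adjusted p 4.16e-07), and Slc7a2, a cationic amino acid transporter that carries the substrate arginine, by -2.98 (SE 0.15, 7.79e-07). The receptor of nitric oxide, soluble guanylate cyclase, is a dimer of an alpha and a beta subunit. Gucy1a3 (now Gucy1a1) fell from 30.3 ± 10.5 to 2.07 ± 0.575 (SD, n = 3), a log2 change of -3.32. Gucy1a2, the other alpha subunit, went the other way, from 3.90, 3.05 and 2.79 to 25.0, 21.1 and 22.3, a log2 change of 2.49 (SE 0.13, by limma, adjusted p 7.93e-07). Gucy1b3 (now Gucy1b1) stood at 21.5 ± 5.12 and 14.6 ± 0.713 (SD, n = 3), a log2 change of -0.51 (limma adjusted p 0.0170) that was not called without female replicate 4 (0.0611) and was -0.34 without male replicate 4. Cav1, whose product binds and restrains the endothelial synthase, was read at 901 ± 77.4 and 860 ± 13.2 (SD, n = 3). Its log2 change was -0.06 (95% interval -0.23 to 0.11, limma adjusted p 0.463), and its sign turned without male replicate 4 (0.0037).

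In the endothelin system the ligand was higher and both receptors were lower in the female-labelled libraries. Edn1, the precursor of endothelin-1, was read at 0.746, 0.648 and 0.777 in the male-labelled libraries (18, 17 and 22 reads) and at 3.49, 4.77 and 4.89 in the female-labelled ones (84, 108 and 103 reads). It was thus 6.06-fold higher by group means, with a log2 change of 1.63 (SE 0.14, by limma, adjusted p 1.39e-05) and 2.58 by edgeR (adjusted p 1.53e-05). It remained a low-abundance transcript in both groups.

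Ednrb, the B-type receptor that endothelial cells carry, was read at 16.1, 18.5 and 21.2 in the male-labelled libraries and at 2.12, 3.32 and 4.84 in the female-labelled ones. The log2 change was -2.19 (SE 0.22, by limma, adjusted p 3.66e-05), and the female-labelled libraries spread widely, from 51 reads in replicate 4 to 102 in replicate 6. Ednra, the A-type receptor of contractile cells, was at 38.9, 36.3 and 37.5 in the male-labelled libraries. It was nearly undetected at 0.249, 0.0884 and 0.475 in the female-labelled ones, where it had 18 reads in all. Of the mural and contractile genes, Pdgfrb (-3.13), Rgs5 (-2.17) and Cspg4 (-1.05) were lower there too. Higher were Acta2 (4.57), Myh11 (5.54), Tagln (4.43), Cnn1 (3.66) and Des (0.70), and the part of these genes in the Ednra value was not tested. Its log2 change was -4.93 (SE 0.13, by limma, adjusted p 3.66e-08) and -7.13 by edgeR on reads, and it had passed the filter through the male-labelled libraries alone. The log2 ratio of Ednra to Ednrb, taken on values plus 1 within each library, was 0.98 ± 0.22 in the male-labelled libraries and -1.76 ± 0.39 in the female-labelled ones (SD, n = 3). The difference of -2.75 did not overlap between groups and had an exact two-sided permutation p of 0.10, the smallest that 3 against 3 libraries allow (0.10 also after Benjamini-Hochberg adjustment over the 3 ratios tested here). With a pseudocount of 0.1 in place of 1 it was -4.34.

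Ece1, the protease that cuts the endothelin precursor into the active peptide, was abundant and changed less. It was read at 809, 721 and 729 in the male-labelled libraries and at 480, 502 and 509 in the female-labelled ones, so the lowest of the first lies well above the highest of the second. The log2 change was -0.60 (SE 0.07, by limma, adjusted p 7.75e-05). Its relative Ece2 was also lower (-0.77, SE 0.10, limma adjusted p 0.000174), as was Mme (-1.63, SE 0.14, limma adjusted p 1.40e-05), which encodes neprilysin, an enzyme that degrades vasoactive peptides. In all, 3 of the 3 further tested genes of the endothelin list were lower, against 34.6% of all tested genes, with a median of -1.63. Among them, Ednra had passed the filter through the male-labelled libraries alone and could only be called lower. Edn2 and Edn3 were not analysed here.

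In prostanoid synthesis the 2 cyclooxygenases had opposite signs on the library scale, Ptgs2 higher and Ptgs1 lower, but relative to Pecam1 (1.86) or Cdh5 (0.67) Ptgs1 was higher too. Ptgs2, the inducible isoform, was read at 126, 80.8 and 83.2 in the male-labelled libraries and at 982, 892 and 698 in the female-labelled ones. Male replicate 4 was the highest of its group and female replicate 6 the lowest of its own, and a wide gap separated the groups. The mean rose 8.88-fold, from 96.5 ± 25.2 to 857 ± 145 (SD, n = 3), with a log2 change of 3.15 (SE 0.18, by limma, adjusted p 1.70e-06). Ptgs1, the constitutive isoform, was at 108, 130 and 136 in the male-labelled libraries and at 79.9, 82.5 and 84.6 in the female-labelled ones. It was lower by a log2 change of -0.59 (SE 0.09, by limma, adjusted p 0.000481). The log2 ratio of Ptgs2 to Ptgs1 was 0.22, -0.68 and -0.71 in the male-labelled libraries and 3.60, 3.42 and 3.03 in the female-labelled ones. The difference of 3.74 between group means had an exact two-sided permutation p of 0.10, the smallest possible. Per kilobase of exon, Ptgs2 (21.1 ± 5.50) lay below Ptgs1 (32.1 ± 3.86) in the male-labelled libraries, and far above it (187 ± 31.7 beside 21.2 ± 0.605) in the female-labelled ones (SD, n = 3).

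Ptgis, which turns the cyclooxygenase product into prostacyclin, differed least of the 10. It was read at 94.2, 106 and 111 in the male-labelled libraries and at 85.5, 89.8 and 81.4 in the female-labelled ones. The ranges lie close together, and the log2 change was -0.28 (SE 0.08, 95% interval -0.45 to -0.10, limma adjusted p 0.0123). Without male replicate 6 the adjusted p was 0.0498. Ptges, the inducible synthase of prostaglandin E2, was at 276 ± 51.3 in the male-labelled libraries and 53.6 ± 7.77 in the female-labelled ones (SD, n = 3), a log2 change of -2.33 (SE 0.15, by limma, adjusted p 2.96e-06). Upstream of the cyclooxygenases, Pla2g4a, the phospholipase that releases arachidonic acid, rose with Ptgs2 (1.55, SE 0.06, limma adjusted p 2.03e-07), as did Abcc4, an exporter of prostanoids (1.93, SE 0.07, limma adjusted p 1.94e-07). The receptors Ptgir, for prostacyclin, and Ptger4, for prostaglandin E2, were lower (-1.22 and -1.45, limma adjusted p 0.00162 and 0.00143), and for the weakly read Ptgir edgeR gave -2.88. Ptgir had 19 reads in all in the female-labelled libraries, and male replicate 4 stood highest for both receptors (3.40 beside 1.30 and 1.59 for Ptgir, 28.9 beside 15.0 and 12.2 for Ptger4). Of the 14 other tested genes of the prostanoid list, 7 were lower and 4 higher, with a median of -0.27. The shares over all tested genes were 34.6% lower and 34.6% higher. In this list 2 genes, Ptgir among them, had passed the filter through the male-labelled libraries alone and could only be called lower.

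Ace had the largest change of the 10 on the log2(value + 1) scale, while Nos3, at far fewer reads, changed more by group means (46.0-fold against 23.0-fold) and by edgeR (-5.48 against -4.54). It was read at 192, 180 and 188 in the male-labelled libraries and at 7.51, 8.49 and 8.36 in the female-labelled ones. Replicates agreed closely within each group, with a coefficient of variation of 3.08% and 6.53%. The mean fell 23.0-fold, a log2 change of -4.37 (SE 0.07, by limma, adjusted p 5.48e-09), and 0.414% of tested genes had a larger absolute log2 change. Of the 7 other tested genes of the angiotensin and kinin list, 5 were lower and 2 higher, with a median of -0.73. Among all tested genes, 34.6% were lower and 34.6% higher. Enpep, an aminopeptidase that trims angiotensin II, was at 4.06 ± 0.745 and 0.164 ± 0.0929 (SD, n = 3), a log2 change of -2.11 (limma adjusted p 3.86e-06). Agt, the angiotensin precursor, held 169 reads in the male-labelled libraries and 4 in the female-labelled ones (limma adjusted p 6.87e-05). Both had passed the filter through the male-labelled libraries alone, and edgeR on reads gave -4.61 for Enpep. Lnpep, another membrane aminopeptidase, was higher (0.90, SE 0.12, limma adjusted p 0.000256). The receptor Agtr1a was barely detected in either group, with 2 and 4 reads in all, and was not tested.

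Adm and Calcrl, the adrenomedullin precursor and the receptor subunit that binds it, were the most abundant of the 10 genes per exon length in the male-labelled libraries and were both lower in the female-labelled ones. Adm was read at 507, 815 and 864 in the male-labelled libraries and at 163, 168 and 170 in the female-labelled ones. Male replicate 4 lay well below the other two, while the female-labelled libraries agreed within a coefficient of variation of 2.17%. The log2 change was -2.08 (SE 0.18, by limma, adjusted p 1.52e-05). Calcrl was at 2060, 1551 and 1431 in the male-labelled libraries, replicate 4 being the highest here, and at 493, 512 and 610 in the female-labelled ones. Its log2 change was -1.63 (SE 0.14, by limma, adjusted p 1.66e-05). The log2 ratio of Edn1 to Adm, a constrictor against a dilator precursor, was -8.69 ± 0.44 in the male-labelled libraries and -4.97 ± 0.19 in the female-labelled ones (SD, n = 3), a difference of 3.72 with an exact two-sided permutation p of 0.10, the smallest possible. With a pseudocount of 0.1 it was 4.52, as Edn1 lies below 1 in the male-labelled libraries.

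Calcrl needs a RAMP partner to bind adrenomedullin. Ramp2 was read at 3.15, 4.42 and 3.50 in the male-labelled libraries and at 0.0830, 0.442 and 0.190 in the female-labelled ones, a log2 change of -1.92 (SE 0.16, by limma, adjusted p 1.16e-05). Ramp3 was at 1.08, 1.53 and 1.62, and at 0.332, 0.796 and 0.190 (-0.76, SE 0.18, limma adjusted p 0.00510). At such low levels the pseudocount compresses the change, and edgeR on reads gave -3.95 for Ramp2 and -1.68 for Ramp3. Both lay far below Calcrl per kilobase of exon, at 1.12 ± 0.199 and 1.02 ± 0.211 beside 344 ± 68.4 in the male-labelled libraries (SD, n = 3). Of Ramp2's 50-mers, 30.7% occur in other annotated transcripts, so part of its reads may not be specific to it. Ramp1 was not analysed here. Ackr3, a scavenging receptor for adrenomedullin and a chemokine, fell from 81.2 ± 17.9 to 19.8 ± 3.33 (SD, n = 3), and Adm2, a related peptide, from 6.87 ± 1.20 to 2.27 ± 0.253 (SD, n = 3). Gpr182, an endothelial receptor once assigned to adrenomedullin, was lower too, at 1.95 ± 0.560 and 0.457 ± 0.0525 (SD, n = 3, limma adjusted p 0.000435). Of the 7 other tested genes of this list, 6 were lower and 1 higher, with a median of -1.0005. Over all tested genes the shares were 34.6% lower and 34.6% higher. Of the 6 lower genes, 3 (Ramp2, Ramp3 and Gpr182) had passed the filter through the male-labelled libraries alone and could only be called lower.

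**Figure D2:**
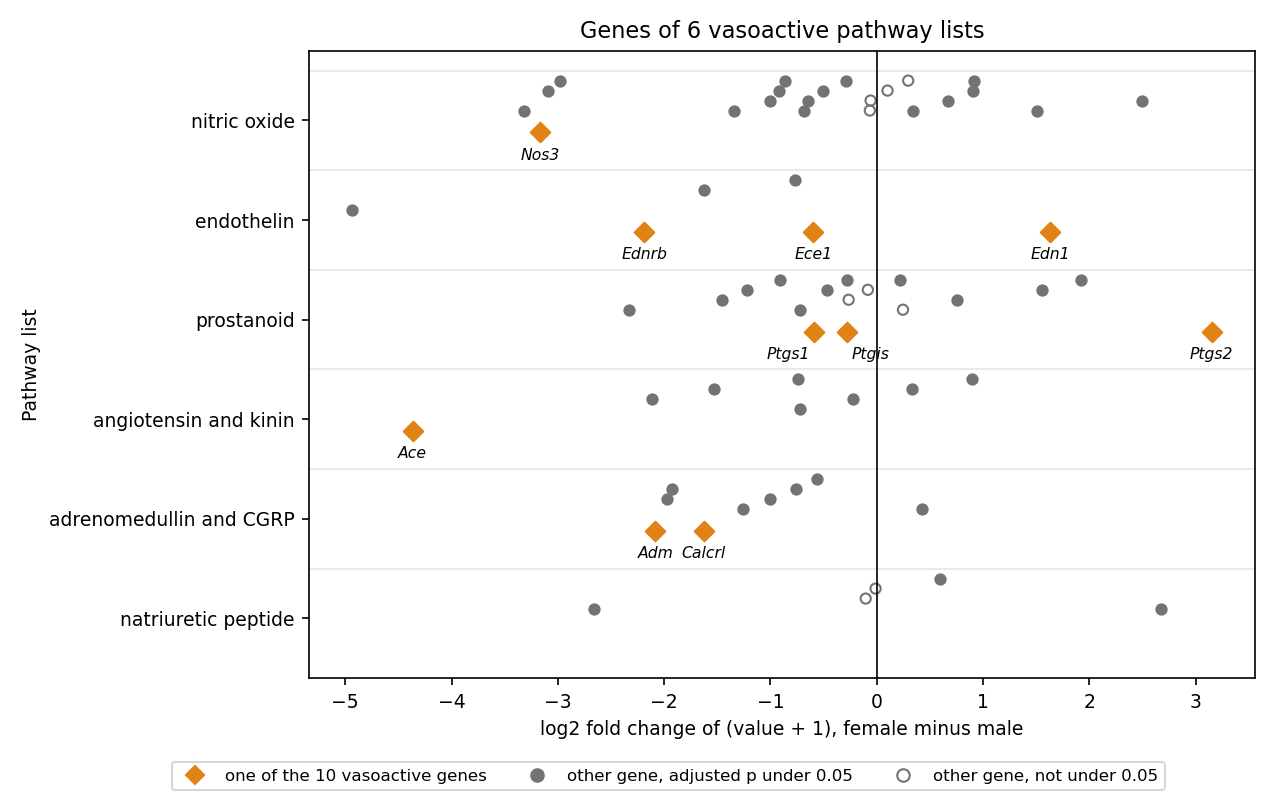
Log2 fold change on the (value + 1) scale, female minus male, of each tested gene in 6 pathway lists (1 row per list, vertical offsets only separate points). Orange diamonds are the 10 vasoactive genes, filled circles other genes with a limma adjusted p under 0.05 and open circles the rest. In the adrenomedullin and CGRP list 8 of 9 genes lie below 0, while the nitric oxide and prostanoid lists hold genes on both sides.

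The upstream sequences of Adm and Ptgs1, lower in the female-labelled libraries, and of Edn1 and Ptgs2, higher there, are shown. These genes were picked by their direction, and the windows of other genes are only counted below. All 6 libraries had the same ligand and hypoxia, so nothing here compares exposed with unexposed cells. Each is the 250 bases before the start of the gene in RefSeq (GRCm38.p6), 5′ to 3′ on the gene's strand, from chr7:110627407-110627656 for Adm, chr13:42301226-42301475 for Edn1, chr2:36230176-36230425 for Ptgs1 and chr1:150099781-150100030 for Ptgs2, all on the + strand. Capitals mark each ACGTG or GCGTG, or its reverse complement. Hypoxia-inducible factors recognise both of these cores, and the AHR recognises GCGTG, so a match to GCGTG belongs to both.
Adm: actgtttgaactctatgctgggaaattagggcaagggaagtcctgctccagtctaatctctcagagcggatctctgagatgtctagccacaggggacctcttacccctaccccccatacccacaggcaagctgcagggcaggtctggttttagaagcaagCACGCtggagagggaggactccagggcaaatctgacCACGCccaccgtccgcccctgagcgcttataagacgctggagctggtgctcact
Edn1: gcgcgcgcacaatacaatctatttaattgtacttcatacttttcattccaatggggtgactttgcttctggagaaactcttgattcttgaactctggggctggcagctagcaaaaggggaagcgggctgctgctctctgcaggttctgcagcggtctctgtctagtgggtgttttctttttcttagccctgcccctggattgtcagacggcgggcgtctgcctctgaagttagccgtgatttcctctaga
Ptgs1: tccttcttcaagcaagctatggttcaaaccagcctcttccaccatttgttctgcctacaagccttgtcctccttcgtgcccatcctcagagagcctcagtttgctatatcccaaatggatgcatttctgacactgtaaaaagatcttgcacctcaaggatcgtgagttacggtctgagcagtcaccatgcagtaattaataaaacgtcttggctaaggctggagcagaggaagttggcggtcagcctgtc
Ptgs2: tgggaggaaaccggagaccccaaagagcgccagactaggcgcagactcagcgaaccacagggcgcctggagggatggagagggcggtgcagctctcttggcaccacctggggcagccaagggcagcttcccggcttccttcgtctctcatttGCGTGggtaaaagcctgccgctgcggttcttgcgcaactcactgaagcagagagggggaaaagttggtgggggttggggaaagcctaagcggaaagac
In the Adm window GCGTG occurs 2 times on the reverse strand, 54 and 90 bases upstream of the start. In the Ptgs2 window it occurs 1 time on the forward strand, 98 bases upstream. The windows of Edn1 and Ptgs1 hold neither core, which says only that these letters are not in this window. RefSeq windows were matched for 8 of the 10 genes, Nos3 and Ptgis not among them, with 12 windows in all because Ace and Ece1 have several starts. Counted by window, GCGTG on either strand was present in 6 of these 12 (1 each of Adm, Ednrb and Ptgs2 and 3 of Ece1, 2 of which overlap and share the site) and in 28.2% of all 32851 windows of this length. ACGTG was present in 1 of the 12, at a start of Ece1, and in 16.6% of all windows. The TATA core TATAA was found in 2 of the 12, 1 each of Ace and Adm, on both strands at 1 overlapping site, and in 22.8% of all windows. The AP-1 motif TGANTCA was found in 0 of the 12 and in 6.75% of all windows.

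**Figure D3:**
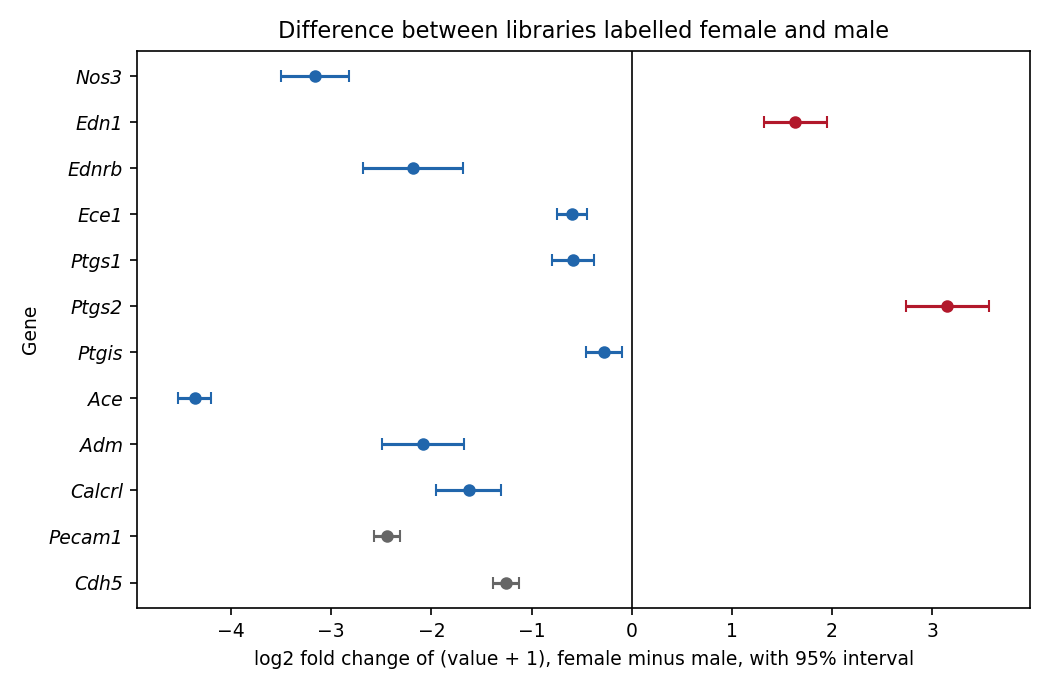
Log2 fold change on the (value + 1) scale, female minus male, of the 10 genes (blue lower, red higher) and of the endothelial genes Pecam1 and Cdh5 (grey). Bars are 95% intervals from limma over 3 against 3 libraries. Ace and Nos3 lie below both endothelial genes, Ece1, Ptgs1 and Ptgis lie above both and turn to higher when values are taken relative to either, and Adm, Ednrb and Calcrl lie between them.

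Since endothelial markers were lower in the female-labelled libraries, the 10 genes were also set against 2 of these markers within each library, a scaling chosen after the values were seen. Pecam1, which encodes CD31, was at 407 ± 16.2 and 73.9 ± 0.540 (SD, n = 3), a log2 change of -2.44. Cdh5, the cadherin of endothelial junctions, was at 924 ± 5.58 and 387 ± 11.9 (SD, n = 3), a log2 change of -1.25, so the 2 markers did not fall alike. Other endothelial markers differed more widely, from -4.71 for Vwf and -3.81 for Egfl7 to 0.40 for Eng and 3.47 for Ptprb, with Kdr not called (-0.24). The sign of a gene relative to a marker therefore depends on the marker, and the fall of Vwf exceeded that of Ace and Nos3 while the rise of Ptprb exceeded that of Ptgs2 and Edn1. Dividing by a marker shifts all genes by the same amount: relative to Pecam1 96.5% of tested genes were called higher and 1.73% lower, and relative to Cdh5 87.2% and 6.17%. A higher call on these scales is thus what the shift gives most genes. Relative to Pecam1, Ace (-1.92) and Nos3 (-0.72) were lower. The values of Nos3 on these scales carry the compression by the pseudocount and give no order against Ace, since by group means Nos3 fell 46.0-fold, Ace 23.0-fold and Pecam1 5.50-fold. Also relative to Pecam1, 6 genes were called higher, namely Ptgs2 (5.60), Edn1 (4.08), Ptgis (2.17), Ptgs1 (1.86), Ece1 (1.85) and Calcrl (0.81), while Adm (0.36, limma adjusted p 0.0623) and Ednrb (0.26, limma adjusted p 0.240) were not called. Relative to Cdh5, 5 genes were lower (Ace -3.11, Nos3 -1.91, Ednrb -0.93, Adm -0.83 and Calcrl -0.38) and 5 higher (Ptgs2 4.40, Edn1 2.89, Ptgis 0.98, Ptgs1 0.67 and Ece1 0.66). Relative to these 2 markers Ace and Nos3 were lower and Ptgs2 and Edn1 higher, whereas the sign of the other 6 turned with at least 1 of them. Relative to Cdh5 the sign turned for 3 of the 8 genes that were lower unscaled, against 74.6% of all genes called lower.

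Levels of different genes were compared per kilobase of annotated exon. In the male-labelled libraries the order from high to low was Adm (450 ± 119), Calcrl (344 ± 68.4), Ece1 (142 ± 9.23), Ptgis (40.5 ± 3.45), Ace (35.3 ± 1.09), Ptgs1 (32.1 ± 3.86), Ptgs2 (21.1 ± 5.50), Ednrb (4.36 ± 0.598), Nos3 (2.42 ± 0.439) and Edn1 (0.338 ± 0.0314), as normalized read count per kilobase (SD, n = 3). The ranges of Adm and Calcrl, and of Ace and Ptgs1, overlapped, and no other neighbours in this order did. In the female-labelled libraries the order was Ptgs2 (187 ± 31.7), Calcrl (110 ± 12.9), Adm (103 ± 2.24), Ece1 (93.8 ± 2.88), Ptgis (33.3 ± 1.64), Ptgs1 (21.2 ± 0.605), Edn1 (2.05 ± 0.365), Ace (1.54 ± 0.1002), Ednrb (0.803 ± 0.320) and Nos3 (0.0525 ± 0.0244). Among these neighbours the ranges of Calcrl and Adm alone overlapped. Ptgs2 thus stood at rank 7 in one group and rank 1 in the other, Edn1 at ranks 10 and 7, and Ace at ranks 5 and 8.

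**Figure D4:**
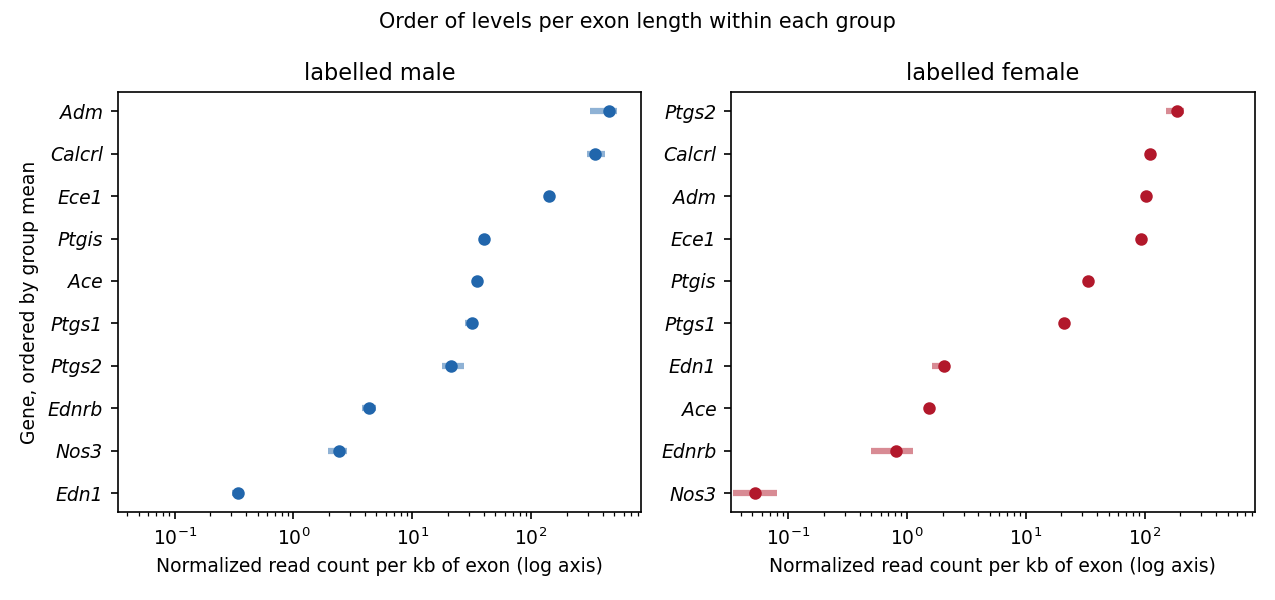
Normalized read count per kilobase of exon (log axis) of the 10 genes, ordered by group mean, in the male-labelled libraries (left) and female (right). Points are means and bars span the lowest to the highest of 3 libraries. Adm and Calcrl lead in the male-labelled libraries, and Ptgs2 leads in the female-labelled ones.

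Genes with the most similar profiles were sought for 3 of the set, by the root mean square difference of centred log2(value + 1) values over the 6 libraries, among the 8976 tested genes with a mean of at least 10. With only 2 groups, this likeness mainly reflects the size of the group difference on that scale. The pseudocount shrinks the difference of Nos3 and Edn1, both near or below 1 in a group, so their nearest genes are alike on this scale and not by fold. Nos3 differed 46.0-fold by group means, whereas Ctla2b went from 322 to 33.2, and Edn1 differed 6.06-fold, whereas Sorbs2 went from 168 to 546. Nearest to Nos3 were Ctla2b (0.0940), Serpine2 (0.103) and Nmnat2 (0.126). Nearest to Edn1 were Sorbs2 (0.115), Wwc1 (0.118) and Fam107b (0.118), and nearest to Ptgs2 were Zdhhc2 (0.118), Tnc (0.133) and Ifi27l2b (0.158).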

How the data were processed

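Poly(A) RNA of 6 libraries was sequenced after Kapa HyperPrep preparation, per the labels' protocols. Bowtie2, RSEM and edgeR with the build mm39 are named in the submitters' processing notes, with no role or order. Strand handling is not given in the sources used here.

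The values the authors deposited are a normalized signal, that is, read counts divided by 1 factor per library. In each column 100% of values were whole multiples (tolerance 0.01) of the smallest value above 0, which gave back the reads, 22303270 to 31189363 per library. The score column is the authors' signed fold change, per the file header (positive where the female-labelled mean was higher), and the p-value columns deposited by the authors are their p and false discovery rate. Columns left without a sample numbered 0.

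The test was limma 3.58.1 (R 4.3.3, eBayes with trend) on log2(value + 1) for the 12568 genes that reached 1 in 3 or more libraries, two-sided, Benjamini-Hochberg adjusted at 0.05. Alternatives were RLE factors, quantile normalization, a pseudocount of 0.1, other filters, edgeR 4.0.16, DESeq2 1.42.0 and voom on recovered reads, the replicate number as a block, and each library left out. The scripts were tested on simulated reads. Ratios between genes used exact permutation tests. Intervals of the log2 fold changes cover the spread between libraries, and read floors cover counting error only.

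The 10 genes, the pathway and marker lists and the tests were chosen with earlier results of these data known. Besides the 10, the text names direct partners and up to 3 further called genes with the largest change in each pathway list, without overlap between groups. Npr2, Furin and the single marker genes were added after their values were seen. Symbols are those of the table, and 3 listed genes were matched under older symbols. Exon lengths, overlaps and shared 50-mers came from GENCODE M21 (GRCm38), which is not the build named by the submitters, so lengths are approximate and coordinates are those of GRCm38.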

Additional observations from a re-analysis of the deposited data

How the results depend on the processing

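Under the other normalizations, filters, tools and left-out libraries, 149 values were recomputed for the 10 vasoactive genes and all 149 kept their direction and call. Nos3 has no value when at least 10 reads are required in every library, because it falls below that filter. The nearest to the threshold was Ptgis without male replicate 6 (limma adjusted p 0.0498). Of 398 values for the 27 partners and largest-change genes that were tested, 396 kept direction and call, the exceptions being Cav1, whose log2 change ran from -0.114 without male replicate 5 to 0.0037 (reversed) without male replicate 4, the cause not tested, and Gucy1b3 without female replicate 4 (limma adjusted p 0.0611). Npr2, Furin and the marker genes other than Pecam1 and Cdh5 were not recomputed gene by gene. The count of 8704 genes called stayed within 1.5 times under all 15 other settings, from 7731 without female replicate 5 to 9496 without male replicate 4. The 3 ratios kept their sign with a pseudocount of 0.1, the block and each library left out. No pairing by replicate number was seen. Same-numbered deviations from the group mean correlated across genes at -0.09, -0.03 and -0.17, and no library correlated best with its own number. With 3 libraries per group, this check cannot exclude pairing. With the replicate block, 8314 genes were called and the 10 genes kept direction and call, and the ratios differed by 3.74, -2.75 and 3.72 with an exact sign-flip p of 0.25, the smallest that 3 pairs allow. The scalings to Pecam1 and Cdh5 were chosen after seeing the data. By construction they add the fall of the marker to each gene, and directions reversed relative to Pecam1 for Adm (0.36), Calcrl (0.81), Ece1 (1.85), Ednrb (0.26), Ptgis (2.17) and Ptgs1 (1.86), and relative to Cdh5 for Ece1 (0.66), Ptgis (0.98) and Ptgs1 (0.67). Whether cell makeup contributes was not tested. Depth limits Nos3, Ednra, Ptgir, Ramp2, Enpep and Agt, whose libraries labelled female hold 15, 18, 19, 16, 11 and 4 reads in all, so their folds are imprecise. The fitted log2 change of Nos3 ran from -3.06 without male replicate 5 to -5.51 by DESeq2.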

Other observations

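The natriuretic peptide system, another dilator pathway, was read through its receptors and processing enzymes, since Nppa, Nppb and Nppc were not analysed here. Of 5 tested genes of the list, 1 was lower and 2 higher in the female-labelled libraries (median log2 change -0.01). Across all tested genes, 34.6% were called lower and 34.6% higher. Npr1, the guanylate cyclase receptor of the atrial and brain peptides, was read at 9.62, 10.7 and 10.7 in the male-labelled libraries and at 0.872, 0.486 and 1.09 in the female-labelled ones (log2 change -2.66, SE 0.14, limma adjusted p 1.22e-06). Npr3, the clearance receptor, was higher, at 33.7, 37.6 and 45.6 against 25.0, 26.5 and 24.4 (0.59, SE 0.11, limma adjusted p 0.00145). Pcsk6, a convertase that activates the peptide-processing enzyme corin, was also higher, at 27.3, 25.4 and 24.9 against 3.94, 2.86 and 2.90 (2.68, SE 0.12, limma adjusted p 4.51e-07). Npr2, the receptor of the C-type peptide, was at 146 ± 3.12 and 136 ± 8.91 (SD, n = 3, limma adjusted p 0.187), and Furin at 109 ± 7.69 and 108 ± 8.23 (SD, n = 3, limma adjusted p 0.912).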
